A study of Mus musculus with 16 samples.

Results

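Immunoglobulin gene segments are the germline pieces from which B cells build antibody genes. The segments described here were all gene models whose biotype began with IG_ in the deposited mouse gene annotation, genes and pseudogenes alike, on every chromosome. The rule gave 430 of 50578 gene models, or 0.850%. They comprised 379 V, 23 D, 14 J and 14 C models, of which 161 carried a pseudogene biotype and 269 did not. Chromosome 12 held 233 of them, chromosome 6 held 184, chromosome 16 held 12 and chromosome 13 held 1. The annotation also held 268 T cell receptor segments, the equivalent pieces in T cells, which are set beside them where the 2 kinds can be compared.

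The annotation was deposited with a study of macrophages derived from mouse bone marrow in 7 days of culture with the growth factor M-CSF at 50 ng per ml. RNA-seq of C57BL/6 WT cells comprised 3 libraries after lipopolysaccharide (LPS, a component of the bacterial outer membrane) and 3 untreated libraries. Ribosome profiling, a readout of mRNA pieces shielded by ribosomes, comprised 2 LPS and 2 untreated libraries of C57BL/6 WT cells. RiboTag libraries, made from RNA pulled down with an HA-tagged ribosomal protein, came from LysM-Cre x RiboTag cells, with 2 untreated libraries, 2 after LPS for 6 h and 2 after LPS for 24 h. LysM-Cre is active in myeloid cells, so the tag is limited to cells in which Cre has acted. For the other assays the labels name no LPS time for single libraries. Values per library and their depth were not analysed here, so nothing below measures expression, and the effect of LPS on these segments was not tested. Each value describes the gene models against which reads of such cells can be counted, and an interval covers counting error only.

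In developing B cells the RAG1 and RAG2 recombinase joins a V, a D and a J segment of the heavy chain locus Igh, and a V and a J segment of a light chain locus, Igk for kappa or Igl for lambda. The joined exon is spliced to C exons, and those of the heavy chain set the antibody class. Cells outside the lymphoid lineages, macrophages included, normally keep these loci in the unrearranged germline order, which is the order that a reference annotation shows.

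Of the 430 segments, 217 had a symbol beginning with Igh, 168 with Igk and 12 with Igl, while 33 had none of these prefixes. By position, 233 lay in Igh, 182 in Igk, 12 in Igl and 3 in none. On build mm10, Igh ran over 2.76 Mb at chr12:113254830-116010093, with its C genes on the minus strand. Igk ran over 3.17 Mb at chr6:67555497-70726966, with its C gene on the plus strand. Igl ran over 0.199 Mb at chr16:19061618-19260859, on the minus strand. Exons of the segments filled 3.08% of the Igh span, 1.93% of the Igk span and 1.59% of the Igl span. Both large loci were therefore mostly made of the sequence between segments.

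The V segments encode most of the variable domain that contacts antigen. Igh held 197 V models by position, Igk held 176 and Igl held 3. The Igh V models began 143093 bases from Ighj1, the J segment nearest to them, with the pseudogene Ighv5-1 at chr12:113572927-113573402. They ended 2579825 bases away with the pseudogene Ighv1-86 at chr12:116009659-116010093. The Igk V models began much closer to their J cluster, at 18384 bases, with Igkv3-1 at chr6:70703578-70704177. They ended 3166345 bases away with Igkv2-137 at chr6:67555497-67556216. Between neighbouring V models the median gap was 11091 bases in Igh (quartiles 6267 and 15912, 194 gaps) and 14993 bases in Igk (quartiles 8724 and 22886, 175 gaps). The widest Igh gap was 51745 bases, between Ighv8-5 and Ighv1-50, and the widest Igk gap was 100665 bases, between Igkv14-134-1 and Igkv1-135. V models were thus denser in Igh, with 80.0 per Mb of V region, than in Igk, with 55.9 per Mb.

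Orientation separated the 2 large loci. A V segment on the strand of its C gene is joined by deleting the DNA between, whereas one on the opposite strand is joined by inverting it. In Igh, 195 of 197 V models lay on the strand of the C genes. In Igk, 94 of 176 lay on the opposite strand (53.4%, Wilson 95% interval 46.0 to 60.6). All 3 Igl V models lay on the strand of the C genes. Among the Igk V models without a pseudogene biotype 64 of 102 were opposite (62.7%, 53.1 to 71.5), and among the Igk pseudogenes 30 of 74 were (40.5%, 30.1 to 51.9). The strand changed often along Igk, where the 176 models fell into 63 runs of equal strand. The longest run held 27 models, from Igkv8-27 to Igkv4-50, all opposite to the C gene. Whether the runs were longer than in a random order was not tested. Of the 59 V models nearest the J cluster 41 were opposite, of the next 59 it was 39, and of the farthest 58 it was 14.

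**Figure D1:**
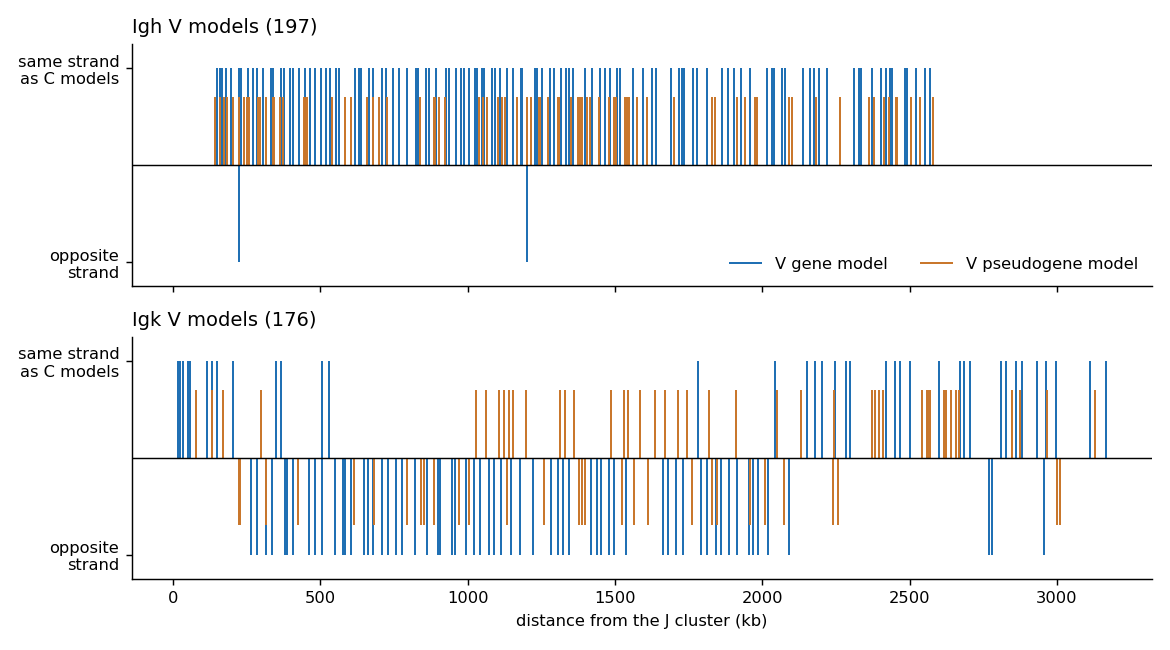
Each vertical line is a V model, placed by its distance in kb from the J cluster of its locus, Igh above and Igk below. Lines point up for the strand of the C models and down for the opposite strand, with V gene models in blue and tall and V pseudogene models in orange and short. Igh shows 2 lines pointing down among 197, while Igk shows 94 among 176, with 14 of them among the farthest 58.

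The 2 opposite models in Igh were of a separate biotype, IG_LV_gene. They bore the symbols Ighv5-8 (chr12:113654967-113655244, plus strand) and Ighv1-13 (chr12:114630680-114630973, plus strand). Each lay wholly over a minus-strand pseudogene of the same symbol, with 278 of 278 and 294 of 294 exon bases covered. Neither is thus a separate place in the genome, and without them every Igh V model lay on the strand of the C genes.

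V segments are grouped into families by sequence likeness, and the number after the v in the symbol names the family. Of the Igh V models 185 carried such a symbol, in 16 families, and of the Igk V models 162 did, in 20 families. Igh was dominated by a single family. Ighv1 had 93 models, 39 of them pseudogenes, Ighv5 had 22, 11 of them pseudogenes, and Ighv8 had 16, 7 of them pseudogenes. These 3 families held 131 of the 185 named Igh models (70.8%). Their median distances from Ighj1 were 249 kb for Ighv5, 1516 kb for Ighv1 and 1951 kb for Ighv8. Ighv5 lay apart, at 143 to 890 kb. Ighv1, at 922 to 2580 kb, and Ighv8, at 903 to 2428 kb, shared most of their range. In Igk the largest family was Igkv4 with 33 models, followed by Igkv13 with 18, and by Igkv1, Igkv3, Igkv8 and Igkv12 with 13 each. Every family in both loci had at least 1 model without a pseudogene biotype.

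Igkv4 and Igkv13 shared a region but differed in orientation and status. All 33 Igkv4 models lay opposite to the C gene and 7 were pseudogenes. All 18 Igkv13 models lay on the strand of the C gene and 17 were pseudogenes, the exception being Igkv13-84. These counts use the symbols of the file. In the symbol table a V gene model on the opposite strand, Igkv12-47 in the file, is Igkv13-85, and the pseudogene Igkv13-89-1 is Gm42924. The families were interleaved: Igkv4 ran from 1021 to 1967 kb and Igkv13 from 1105 to 1912 kb from the J cluster. Within the Igkv4 range, 51 of 63 V models belonged to either family. Each of the 18 Igkv13 models had an Igkv4 model as a direct neighbour, at a median distance of 7.04 kb (2.96 to 21.3 kb). The 17 Igkv13 pseudogenes had a median spliced length of 296 bases (185 to 347). Among the other larger Igk families, 12 of 13 Igkv3 and 10 of 13 Igkv1 models lay on the strand of the C gene. In contrast, 11 of 13 Igkv8 and 12 of 13 Igkv12 models lay opposite to it. By the symbols of the file, 12 of the 16 Igk families with over 1 model had models on both strands, and 4 kept to 1 strand. Among the 12 were Igkv15, with 3 on the strand of the C gene and 2 opposite, and Igkv19. In the symbol table the Igkv19 model on the strand of the C gene is Igkv11-106.

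**Figure D2:**
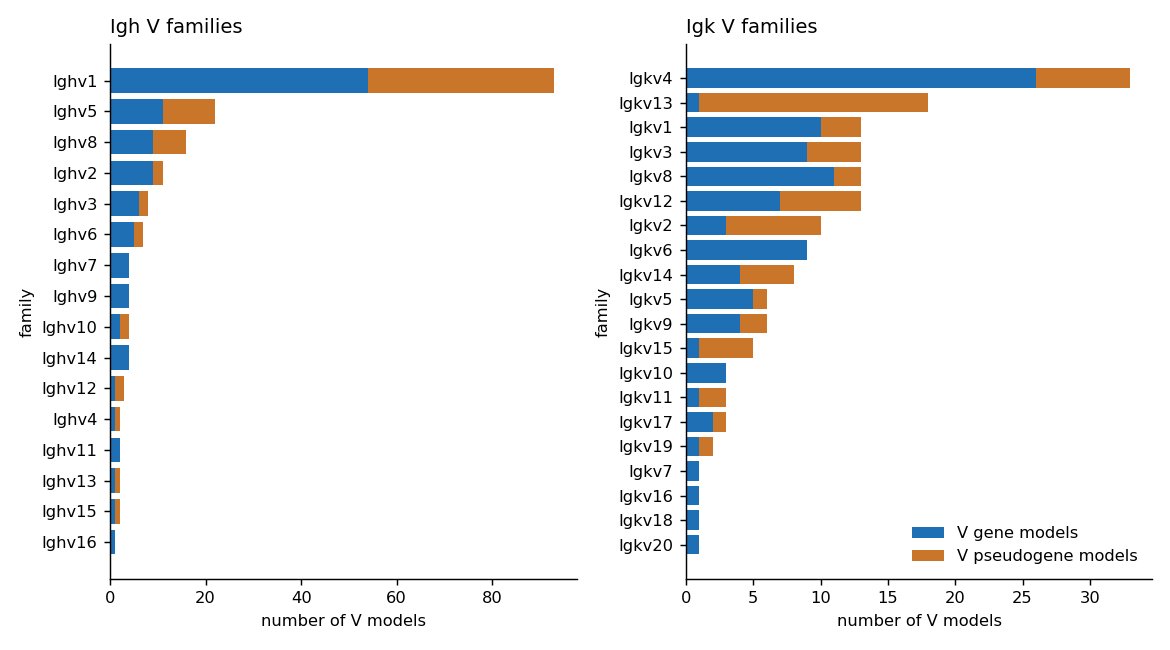
Bars give the number of V models per family in Igh (left) and Igk (right), split into V gene models (blue) and V pseudogene models (orange). Ighv1 reaches 93 models, and Igkv13 is the family whose bar is nearly all orange, with 17 pseudogenes of 18. The horizontal scales of the panels differ.

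The number after the hyphen mostly rose with distance from J along Igk, whereas in Igh it restarted in each family, with Ighv1-1 at 922 kb from Ighj1. From each named V model to the next, it was equal or higher in 80.4% of 184 steps in Igh and in 96.9% of 161 steps in Igk. Within families it was so in 98.8% of 169 steps in Igh and 97.2% of 142 steps in Igk. These steps use the symbols of the file. Among the 5 steps to a lower number along Igk were steps at models named Igkv4-73, Igkv4-56, Igkv12-47 and Igkv19-93. The symbol table names these models Igkv4-51, Igkv4-83, Igkv13-85 and Igkv11-106.

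A pseudogene biotype marks a segment that the annotators judged unable to give a protein. It was carried by 156 of 379 V models (41.2%, Wilson 95% interval 36.3 to 46.2). The share was 82 of 197 in Igh (41.6%, 35.0 to 48.6), 74 of 176 in Igk (42.0%, 35.0 to 49.4) and 0 of 3 in Igl (upper bound 56.2%). The Igh and Igk shares lay inside each other's intervals. Among T cell receptor V models 34 of 176 were pseudogenes (19.3%, 14.2 to 25.8), and this interval did not overlap that of all immunoglobulin V models. No p-value is given, since gene models are not replicates. Along Igh, pseudogenes were 27 of the nearest 66, 30 of the next 66 and 25 of the farthest 65 V models. Along Igk they were 17 of the nearest 59, 30 of the next 59 and 27 of the farthest 58.

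**Figure D3:**
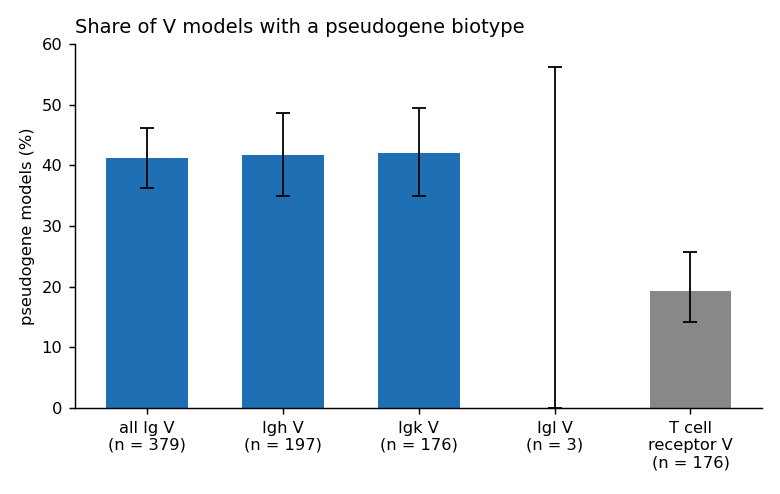
Bars show the percent of V models with a pseudogene biotype for all immunoglobulin V models, for each locus by position, and for T cell receptor V models, with Wilson 95% intervals as error bars. Igh and Igk stand at 41.6% and 42.0%, Igl at 0 of 3, and T cell receptor V models at 19.3%.

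The typical V model had 2 exons, a short leader exon for the signal peptide and a long exon for the variable domain. Of 379 V models 331 had 2 exons (87.3%, 83.6 to 90.3), and of 176 T cell receptor V models 155 did (88.1%). Among V models without a pseudogene biotype 219 of 223 had 2 exons (98.2%), and among V pseudogenes 112 of 156 did (71.8%). Of the other V pseudogenes 43 had 1 exon and 1, Gm37976, had 3. The median spliced length was 358 bases for V models without a pseudogene biotype and 335 bases for V pseudogenes. Over all V models, pseudogenes included, it was 351 bases, and over all T cell receptor V models, pseudogenes included, it was 360.5 bases. The shortest V pseudogene was Gm38184 with 113 bases. All 223 V models without a pseudogene biotype had a coding sequence (CDS), 218 had a start codon line and 0 had a stop codon line. None of the 161 pseudogene members had a CDS. Stop codon lines occurred in the 13 C genes and in no other member, since the reading frame of an antibody chain ends in its C exons.

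The V exon was of similar length in the 3 loci, whereas the median leader and intron were longer in Igk. In the 219 V models with 2 coding exons the leader had a median of 46 coding bases (40 to 112), the V exon 305 (293 to 351) and the intron between them 109 bases (76 to 405). In Igh the leader had 46 coding bases in 99 of 111 models, and all 6 Ighv3 models of this kind had 43. In Igk it had 49 in 84 of 102 models and 55 in 12. The 55-base leaders included all of those of Igkv9 (4 models) and Igkv14 (4 models). The longest immunoglobulin leader with a locus was the 73 bases of Ighv5-9-1, named after its value was seen, and the 112 bases belonged to Tcrg-V4, described below. The intron had a median of 83 bases in Igh (quartiles 82 and 86.5, highest 176), 178 bases in Igk (quartiles 148 and 210) and 93 to 103 bases in the 3 Igl models.

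In several Igk families the intron length was narrow. The 12 Igk introns over 300 bases belonged to Igkv1, with 10 models, and Igkv2, with 2. Igkv1 introns ranged from 352 to 405 bases, whereas those of Igkv4 ranged from 169 to 205, those of Igkv3 from 230 to 241 and those of Igkv10 from 121 to 124. Other families were wider, with 219 to 365 bases in the 3 Igkv2 models, 177 to 292 in Igkv6 and 102 to 208 in Igkv8. The V exon had 313 bases in all 10 Igkv1 models and 310 in all 9 Igkv3 models. It had 298 bases in all 5 Igkv5 models, a length also found in other families, and it varied from 294 to 309 bases in Igkv4 and from 295 to 322 in Igkv8.

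**Figure D4:**
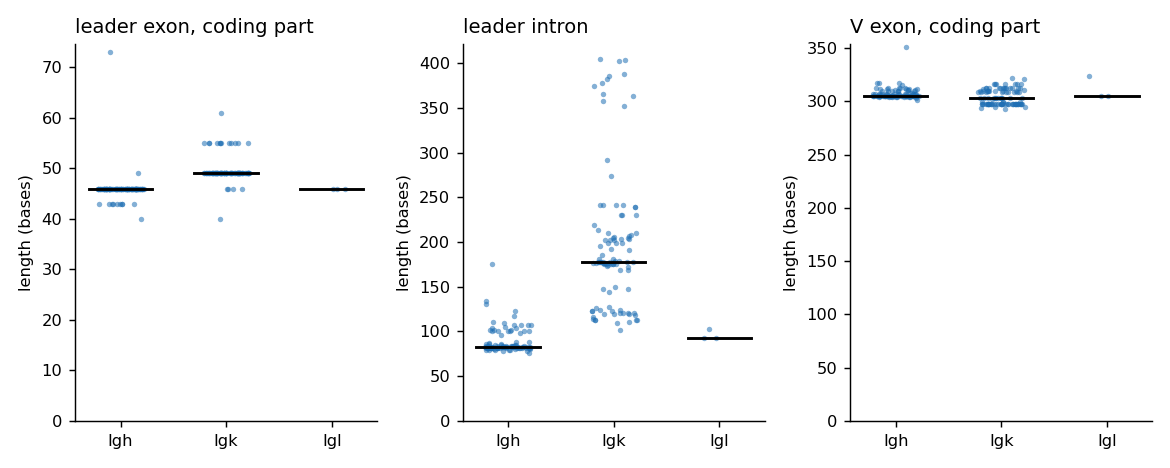
Points are the V models of Igh, Igk and Igl with 2 coding exons, spread sideways for visibility, and black lines are medians. The panels give the coding length of the leader exon, the length of the intron behind it and the coding length of the V exon, in bases. The Igk introns reach 405 bases, against 176 in Igh, while the V exons of all 3 loci lie near 300 bases.

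In all 219 models the coding part of the leader exon left 1 base of a codon, so the leader intron fell at the same place within a codon in every one. Of the 4 V models with a single coding exon, Ighv8-13 had 303 coding bases, Ighv1-13 and Ighv1-16 had 294 each, and Ighv5-8 had 278, the shortest CDS of any Igh V model. The longest Igh V CDS was that of Ighv3-8 with 394 bases. In Igk the shortest was Igkv12-89 with 338 bases and the longest Igkv8-26 with 371. In Igl Iglv1 and Iglv2 had 351 bases each and Iglv3 had 370.

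The annotation often held more than a single transcript for a V gene. Among the V genes 44 combined a 2-exon transcript with a 1-exon transcript, and 45 of the 47 one-exon transcripts of IG_V_gene models came from the automatic source ensembl. In 85 genes a transcript was tagged as having an end that was not found.

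D segments exist in the heavy chain locus, where they add the middle of the antigen-binding loop. By coding sequence, or by exon in the pseudogenes, the 23 D models were 10 to 29 bases long, 7 with 17 bases, 7 with 10, 5 with 29, 2 with 23, and 1 each with 16 and 11. Ighd5-6, counted with 10, also had a transcript of 12 bases. Ighd5-2, Ighd5-3, Ighd5-4 and Ighd5-5 were among the shortest at 10 bases, and Ighd5-7 and Ighd5-8 were among the longest at 29. The 19 D models with a CDS were all given frame 0, although D segments can be read in any frame after joining. The 23 D models formed a cluster of 97527 bases, 694 bases from Ighj1 on one side and 44872 bases from the first V model on the other. Inside the cluster a repeat could be read from the spacing. A 29-base model lay exactly 208 bases from a 10-base model in 4 places: Ighd5-8 and Ighd5-4, Ighd5-7 and Ighd5-3, Gm37327 and Ighd5-2, and Ighd6-2 and Gm37227. Start to start, the 17-base Ighd2-8 and Ighd2-7 lay 5869 bases apart, and Ighd2-7, Ighd2-6, Ighd2-5, Ighd2-4 and Ighd2-3 followed each other at 4649, 4658, 4667 and 4706 bases. The 3 D models without an Igh prefix, Gm37327, Gm37227 and Gm16968, had 29, 10 and 23 bases, lengths that named D models also had.

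J segments encode the end of the variable domain. Ighj1 had 53 coding bases, Ighj2 and Ighj3 had 48 each and Ighj4 had 54. Igkj2 had 39 and Igkj1, Igkj3, Igkj4 and Igkj5 had 38 each. In Igl, Iglj4 had 42 and Iglj1, Iglj2, Iglj3 and Iglj3p had 38 each. T cell receptor J models had a median spliced length of 60 bases (80 models, 10 of them pseudogenes, 29 to 72). The 14 immunoglobulin J models, none with a pseudogene biotype, had spliced lengths of 38 to 54 bases, all below that median. The 4 Igh J segments stood within 1320 bases and the 5 Igk J segments within 1362 bases, with gaps of 265 to 517 and 268 to 316 bases. The 5 Igl J segments were spread over 137011 bases.

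The frames of J segments and C exons can be set side by side. In 13 of 14 J segments 1 base of a codon was left at the 3′ end, and in Iglj4 2 bases were left. Of 20 C gene transcripts 17 began in frame 2, which supplies the 2 missing bases. The exceptions were a transcript of Ighg2c and both transcripts of Iglc2, given as frame 0. The 17 include a partial Ighg2b transcript that begins at the last domain exon, so its frame does not concern the join to J. Iglc4, the C gene beside Iglj4, began in frame 2, so as annotated the 2 bases left by Iglj4 did not close a codon with it. Nor did the 1 base left by Iglj2 with Iglc2 at frame 0.

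The heavy chain C genes set the antibody class, and their order from the J cluster outward was Ighm (IgM), Ighd (IgD), Ighg3, Ighg1, Ighg2b and Ighg2c (IgG subclasses), Ighe (IgE) and Igha (IgA). They spanned 167901 bases. Ighm, the class made before any switching, lay 5783 bases from Ighj4 at chr12:113418558-113422730, and Ighd followed after 2233 bases at chr12:113406604-113416324. The wider gaps were the 45371 bases between Ighd and Ighg3 and the 29051 bases between Ighg3 and Ighg1. The remaining gaps were 17306 bases from Ighg1 to Ighg2b, 14032 to Ighg2c, 12076 to Ighe and 10937 to Igha. Igha ended the locus at chr12:113254830-113260236. Class switching joins repeats that lie before most of these genes. In the interval between Ighm and Ighj4, which holds the first switch region, the annotation placed 4 miRNA models. These were not all separate places: AC073553.1 lay within Gm24022, which overlapped the end of Gm25747.

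Coding exons of the heavy chain C genes followed the domain plan of each class. Ighm had 4 coding exons of 315, 339, 318 and 392 bases in its shorter form. Its other transcript shortened the last of these to 333 bases and added exons with 116 and 6 coding bases. Ighd had 282, 105, 321 and 65 coding bases, or 158 and 6 in place of the 65. In their short form the IgG genes shared a first exon of 291 bases. They differed in the short hinge exon, which had 48 bases in Ighg3, 39 in Ighg1, 66 in Ighg2b and 63 in Ighg2c. The first exon of the longer Ighg2c transcript had 289 bases. The last domain exon of the IgG genes had 320 coding bases in the short form. In the longer form of Ighg1, Ighg2b and Ighg2c it had 315, followed by exons with 131 and 81. Ighe had 273, 321, 321 and 350 coding bases. Igha had 303, 336 and 392, or 303, 336, 333 and 194.

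As background, the forms with added exons at the end encode the membrane-bound receptor and the others the secreted antibody. Both forms were present for Ighm, Ighd, Ighg1, Ighg2c and Igha. For Ighg2b the membrane form was a partial transcript of 3 coding exons, 315, 131 and 81 bases. Ighg3 and Ighe had the secreted form alone in this annotation.

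**Figure D5:**
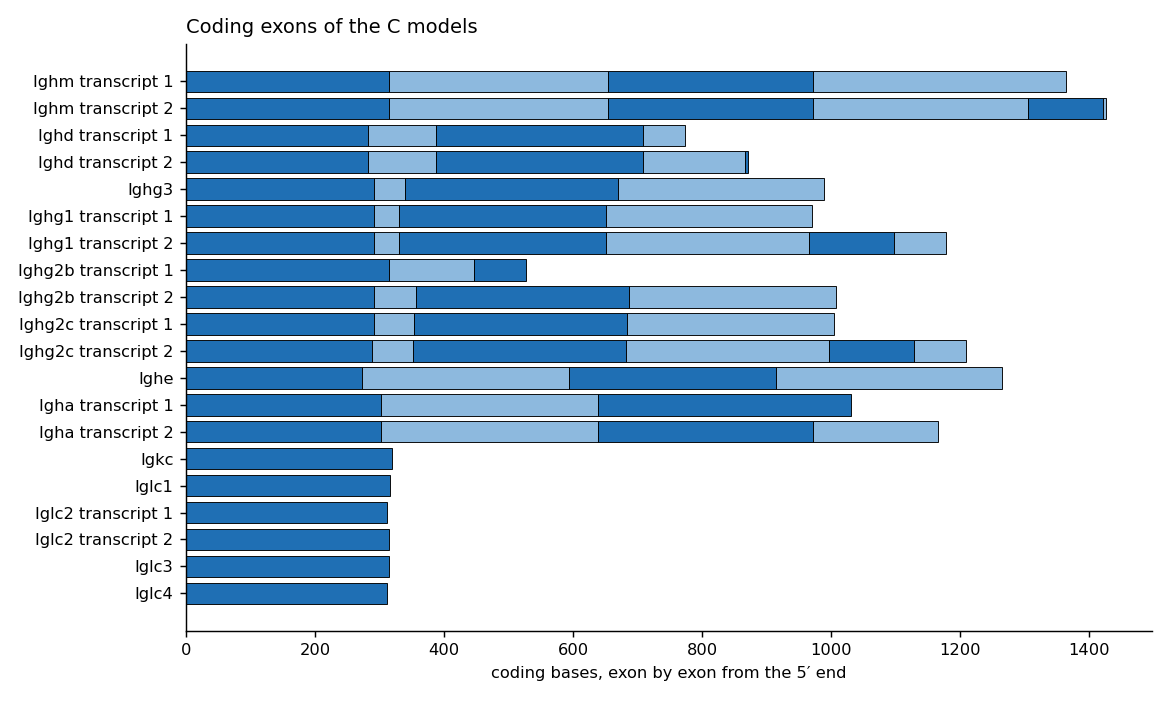
Each bar is a C gene transcript, with its coding exons laid end to end from the 5′ end in alternating shades and their lengths in bases on the horizontal axis. Heavy chain genes are ordered from the J cluster outward, then the light chain genes. The light chain C genes have a single coding exon of 311 to 320 bases, and the longer forms of Ighm, Ighg1 and Ighg2c end in extra exons.

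The fourteenth C model, Gm37944, was the only C pseudogene, at chr12:113315712-113317877 between Ighg2b and Ighg1 and on the plus strand, opposite to its neighbours. Its 3 exons had 202, 131 and 81 bases. The last 2 equalled in length the added coding exons of Ighg1, Ighg2b and Ighg2c.

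The light chain C genes had a single coding exon each, with 320 bases in Igkc, 317 in Iglc1, 314 in Iglc3, 311 in Iglc4, and 312 or 315 in the 2 transcripts of Iglc2. Igkc, the only kappa C gene, lay at chr6:70726435-70726966, 2511 bases from Igkj5. Igl repeated its units instead of gathering them. Along chromosome 16 the order was Iglc1, Iglj1, Iglc3, Iglj3p, Iglj3, Iglv1, Iglc4, Iglj4, Iglc2, Iglj2, Iglv3 and Iglv2. Iglj1, Iglj2, Iglj3 and Iglj4 lay 1153 to 1359 bases before the C gene of their number. For Iglc2 this was measured from its 1-exon transcript, since its other transcript extends over Iglj2. Iglv1 (chr16:19085017-19085500) preceded the units of Iglc3 and Iglc1 in the direction of transcription, and Iglv2 (chr16:19260401-19260859) and Iglv3 preceded those of Iglc2 and Iglc4.

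Exons shared with another model on the same strand make reads ambiguous. Over 50% of exon bases were shared in 3 of 430 immunoglobulin segments (0.698%, Wilson 95% interval 0.238 to 2.03), in 2 of 268 T cell receptor segments (0.746%), in 1651 of 22159 protein-coding genes (7.45%) and in 11.6% of all 50578 models. Iglj2 shared all of its 38 bases with Iglc2, whose automatic transcript carries a first exon over the J segment. Igkv19-93 shared 276 of 363 bases (76.0%) with the pseudogene AC120404.1, and Igkv2-137 shared 301 of 501 bases (60.1%) with the lincRNA RP23-123I10.3. The fourth segment with any shared base was Iglc2, with 38 of 612 (6.21%). On the opposite strand, partial overlaps were found for Ighv1-62-1 with Gm19331 (154 of 349 bases), Iglc3 with RP23-247I11.8 (93 of 452) and Tcrg-V4 with RP23-167F18.7 (79 of 414). V models of a family are grouped by sequence likeness, which was not measured here. Ambiguity of reads between such models at separate positions is not part of these shares.

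Few protein-coding genes lay among the segments. The spans held 82 other gene models in whole, 38 in Igh, 40 in Igk and 4 in Igl. Processed pseudogenes made up 48 of them, miRNA models 11, snoRNA models 5, and lincRNAs and unprocessed pseudogenes 4 each. Models at the same place were counted apart, as with Mir7094-1 and mmu-mir-7094-1 in Igh. The 2 protein-coding genes were Adam6b (chr12:113489511-113492057) and Adam6a (chr12:113543908-113546465), metalloprotease-family genes known for a role in male fertility in mice. Both were on the plus strand, opposite to the Igh segments. Adam6b lay in the widest gap of the D cluster, the 43120 bases between Ighd1-1 and Ighd3-1, and Adam6a lay between the last D and the first V model.

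The label held for 427 of the 430 models by position. The other 3 were IG_LV_gene models outside the loci. Tcrg-V4 (chr13:19184981-19185501), whose symbol names a T cell receptor gamma V segment, lay within the 14 T cell receptor segments of chromosome 13, between Tcrg-V7 and Tcrg-V6. Gm17472 (chr6:42980690-42981150) and Gm20730 (chr6:43081518-43082097) lay on chromosome 6, at 1422237 and 1523065 bases from the T cell receptor segments of that chromosome, and they had 352 and 359 coding bases in 2 exons. Of the V models without a prefix, the first by position in Igh were the pseudogenes Gm37187, Gm37976, Gm37418, Gm38203, Gm38205, Gm37722, Gm7003, Gm37961, Gm37511 and Gm38184. The only V model without a prefix inside a locus and without a pseudogene biotype was IGKV1D-42 (chr6:68880178-68880674, 353 coding bases), a human-style symbol that the symbol table replaces with Gm42543.

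Symbols did not always name a single place. The 430 models bore 424 distinct symbols, since 6 symbols occurred on 2 models each. Beside Ighv5-8 and Ighv1-13 these were Igkv12-47, Igkv19-93, Igkv4-56 and Igkv4-73, whose paired models lay apart from each other on chromosome 6. For each of these 4 pairs the symbol table gave 1 model another name, Igkv13-85, Igkv11-106, Igkv4-83 and Igkv4-51. These were exactly the 4 immunoglobulin segments of the RefSeq table that had no member of that symbol. Values summed by symbol would join these places.

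RefSeq gives its own gene or pseudogene status, here on GRCm38.p6. By symbol 398 members matched, and 29 of them had the other status (7.29%, Wilson 95% interval 5.12 to 10.3). In 16 cases a gene model stood against a RefSeq pseudogene. These included 7 D segments, Ighd5-2 to Ighd5-8, and the Igl models Iglj3p, Iglj4 and Iglc4. The others were the V models Ighv1-13, Ighv5-8, Ighv7-1, Ighv7-3, Igkv12-47 and Igkv14-126. Of these, Ighv1-13, Ighv5-8 and Igkv12-47 are doubled symbols whose other model is a pseudogene, as in RefSeq. In 13 cases a pseudogene model, among them the most distant Igh V model Ighv1-86, stood against a RefSeq V segment. In 27 of the 29 cases the model and the RefSeq gene overlapped in position, and the other 2 were among the doubled symbols. Both ends agreed to the base for 19 of 20 D, 11 of 14 J, 91 of 351 V and 1 of 13 C models that matched.

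Genes that act on these segments were looked up from a list of 24 recombination, switching and B cell genes. All 24 were present as protein-coding models, and 1 of them, Jchain, the chain that joins IgM and IgA units, shared over 50% of its exon bases (83.3%). Rag1 (chr2:101638282-101649501) and Rag2 (chr2:101624718-101632529) lay side by side on opposite strands, away from all segments. Vpreb1, Igll1 and Vpreb2, which form the surrogate light chain of B cell precursors, lay on chromosome 16 at 2190774, 2197632 and 1080537 bases from the Igl span. Prkdc, a kinase of end joining, was on the same chromosome. Xrcc4, an end-joining factor, lay on chromosome 13.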

How the data were processed

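The series holds 16 libraries of mouse macrophages, grouped by their labels. The data used here were 1 gene annotation, whose start and end positions, counted from 1, the authors deposited as coordinates; it has 0 columns of values per sample and 0 lines with a score, so library depth was not analysed here. Per the submitters' processing notes, the build was mm10 and the spliced aligner TopHat2 2.1.1. No source used here says how the annotation was assembled. Models were read with Python 3.11.15, pandas 2.3.3, numpy 2.4.6 and scipy 1.17.1.

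Spliced length is that of the longest transcript; CDS lengths exclude stop codon lines. A model within 500000 bases of a locus span was placed in it. Gaps between Igh V models leave out the 2 IG_LV_gene models. Shares carry Wilson 95% intervals, which cover counting error only. The steps recovered all 300 simulated gene models. Symbols came from the file, and all 430 members had their gene ID in the symbol table, 21 of them with another symbol.

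Members and lists were chosen with earlier results of these data known. Named are all C and J models, V models at the ends of a locus or of a length range, the 3 largest families (ties included), members over 50% shared, coding genes inside the loci and V models without a prefix; other names were chosen after their values were seen. Promoter octamers and recombination signals were not analysed here, since no sequence of a member was at hand. The position of 1 gene of the list of 24 is not reported here.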

Additional observations from a re-analysis of the deposited data

How the results depend on the processing

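Of 21 alternative values 12 stayed within their tolerance, 1.5 times for counts and the Wilson or median 95% interval otherwise. Leaving out pseudogenes gave 269 members, a median spliced V length of 358 bases, 98.2% of V models with 2 exons and 62.7% of Igk V models opposite to the C gene. Taking the median over a gene's transcripts gave 350 bases and 76.0% with 2 exons. Members sharing exons numbered 1 at 90% or more of their bases and 7 with either strand counted. Other genes inside the loci numbered 35 on the strand of the C genes. Matching RefSeq by the symbol table's symbols, chosen after seeing the data, gave 396 matches, all overlapping in position, and 27 of other status. No paired analysis was possible because values per library were not analysed here. The 3 other settings for promoter octamers and the 1 for recombination signals were not run. Depth limits nothing here, since gene models are counted; what limits the values is a single annotation and, for Igl, 3 V models.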
